A study of Mus musculus with 13 samples.

Results

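Immediate early genes are switched on within minutes of a stimulus, before any new protein has been made, and their messages are as a rule destroyed quickly. The 10 genes described here were chosen by symbol, out of 35013 genes in the count table, with earlier results of these data known. Counts of them set beside shares of all tested genes therefore describe these libraries and are not a test of the set. All 10 were expressed highly enough to be tested, as were 16468 genes in all. The 10 genes fall into 3 kinds by role. Fos and Fosb, Jun and Junb, and Atf3 encode basic leucine zipper proteins, of which the Fos and Jun proteins pair to form the transcription factor AP-1. Egr1 and Klf6 encode zinc finger transcription factors, and Ier2 a small nuclear protein. Zfp36 encodes tristetraprolin, which binds AU-rich elements in messages and speeds their decay, and Btg2 encodes an antiproliferative protein that recruits deadenylases to messages. In the kidney these genes are best known for their rise after ischemia, toxins, stretch and tissue handling, and MAP kinases acting on serum response factor and CREB are the classic route to their promoters.

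RNA was taken from kidneys of female mice that all carried Megalin3'Cre-Ert, a tamoxifen-dependent Cre driven by the megalin promoter of the proximal tubule, and 1 Uprt flox/+ allele. Uracil phosphoribosyltransferase lets cells build injected 4-thiouracil into new RNA, so that RNA made during the labeling window could be biotinylated and captured. Spns1 encodes a lysosomal transporter. In addition, Spns1 KO mice were Spns1 flox/flox (n = 4 libraries) and WT mice were Spns1 flox/+ (n = 5), so the WT mice too had 1 floxed Spns1 allele, although the sample labels call them Spns1 WT. FeO mice had the WT genotype and received 12 mg (of iron sucrose by the labels, of elemental iron by the methods) on each of 3 days. It was given by injection, although the labels call the model dietary, and the mice were euthanized 1 week later (n = 4). Ages were not given, tamoxifen went to all groups, and no statement ties library numbers across groups. The libraries hold 31809135 to 71296474 counts in Spns1 KO, 23068023 to 37362311 in WT and 25986133 to 29981814 in FeO.

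Before any comparison, 2 libraries stood apart. The count of Spns1 itself did not separate the labels: the library labelled Spns1 KO 4 had 59.0 CPM (counts as a rate per library total, scaled by TMM factors) against 36.6 to 44.5 CPM in the libraries labelled Spns1 KO 1 to 3, while WT 4 had 39.2 CPM against 57.2 to 62.9 CPM in the other WT libraries. FeO 1 to 4, which had the WT genotype, were at 58.66, 56.68, 39.01 and 45.95 CPM for Spns1. A level as low as that of WT 4 was therefore seen in FeO 3 too, and was not peculiar to WT 4. WT 4 and the library labelled Spns1 KO 4 lay at the ends of their groups for the immediate early genes. The library labelled Spns1 KO 4 was the highest of its group for 10 of 10 genes and the highest of all 13 libraries for 7, and WT 4 was the lowest of its group for 10 of 10. Among all tested genes the library labelled Spns1 KO 4 was the highest of its group for 38.9% and WT 4 the lowest of its group for 31.7%. The summed level of 10 proximal tubule markers was 8054.1 CPM in the library labelled Spns1 KO 4, against 7657.9 to 8996.1 CPM in the libraries labelled Spns1 KO 1 to 3, and 4483.4 CPM in WT 4, against 3532.7 to 4903.1 CPM in the other WT libraries. Other marker sums of these libraries lay outside the rest of their group. The library labelled Spns1 KO 4 was at 327.2 CPM for collecting duct markers (444.0 to 484.8 CPM in the libraries labelled Spns1 KO 1 to 3, 378.4 to 665.4 CPM over all WT libraries) and at 157.9 CPM for fibroblast markers (176.0 to 202.6). WT 4 was at 4535.0 CPM for loop and distal tubule markers, against 1928.2 to 2532.4 CPM in the other WT libraries. The libraries labelled Spns1 KO 1 to 3 were at 3365.4 to 4448.1 CPM for these markers. The labels were kept, and whether any library was mislabelled was not tested.

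The sequences carry 2 features by which such genes are known. Stretches of AU-rich sequence in the 3′ UTR shorten the life of a message, and 7 of the 10 genes hold the 7-base core TATTTAT there, which 28.2% of 20035 genes with a 3′ UTR also hold. Ier2, Junb and Egr1 have none, and Ier2 is also the only one of the 10 with no copy of the shorter ATTTA, which 66.2% of those genes hold. Klf6 has 7 copies of ATTTA in the longest of the 10 UTRs, 3111 bases. The first core of each of 7 genes is shown with the core in capitals, as DNA letters of the message strand, in mouse build GRCm38 with GENCODE M21 models.
Fos (chr12:85477103-85477132, plus strand): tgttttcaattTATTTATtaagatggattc
Fosb (chr7:19303325-19303354, minus strand): ccacccccagcTATTTATccctttcctggt
Jun (chr4:95049078-95049107, minus strand): ttgcttgtgcaTATTTATaatagcgttcgt
Atf3 (chr1:191170337-191170366, minus strand): aaaatattactTATTTATcccagtattcct
Klf6 (chr13:5868490-5868519, plus strand): gctacgtctctTATTTATgccttgaggact
Zfp36 (chr7:28376965-28376994, minus strand): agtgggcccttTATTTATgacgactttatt
Btg2 (chr1:134077248-134077277, minus strand): aaatgaagagcTATTTATacatgttttttt

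The other feature is the binding motif of CREB, TGACGT, on either strand. RefSeq promoter windows of 300 bases (250 before and 50 after the start site, GRCm38.p6) were matched by symbol for 8 of the 10 genes, and TGACGT was found in 3 of the 8, against 8.56% of 20895 promoters. They are Fos, with the motif starting 66 bases before the start site, Btg2, where it is the full palindrome 166 bases before it, and Atf3, on the opposite strand 8 bases before the start site of the RefSeq transcript, which lies inside the longer gene model. A stretch of each is shown 5′ to 3′ on the gene's strand with the motif in capitals.
Fos (chr12:85473789-85473864, plus strand): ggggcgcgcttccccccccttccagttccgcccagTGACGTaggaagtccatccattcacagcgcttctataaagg
Btg2 (chr1:134079281-134079356, minus strand): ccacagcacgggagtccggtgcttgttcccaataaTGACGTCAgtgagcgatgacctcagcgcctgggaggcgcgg
Atf3 (chr1:191183334-191183376, minus strand): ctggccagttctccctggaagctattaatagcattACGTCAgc

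Of the other motifs searched on both strands, the AP-1 motif TGANTCA was in 0 of the 8 windows (7.01% of all promoters), the EGR motif GCGNGGGCG was in the windows of Btg2, Fosb and Zfp36 (7.63% of all), the CArG box of serum response factor was in that of Zfp36 (1.52% of all), and the SP1 motif GGGCGG was in 7 of the 8 (46.8% of all). The motifs overlap in part, since both GC-rich ones share letters. A match is a description of the letters in the window.

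In WT libraries the genes spanned a wide range of levels. Per kilobase of transcript, Zfp36 (35.1 ± 17.4 CPM per kb, mean ± SD, n = 5) and Klf6 (33.9 ± 7.07) were the highest, followed by Jun (17.8 ± 7.53), Btg2 (14.5 ± 5.04), Junb (8.88 ± 2.75), Atf3 (5.60 ± 4.30), Egr1 (4.31 ± 2.08) and Ier2 (3.74 ± 1.46). Fos (1.21 ± 0.509) and Fosb (0.673 ± 0.218) were the lowest. The library ranges of every pair of neighbors in this order overlapped, whereas genes further apart could be separate: the lowest WT library of Jun, at 5.34 CPM per kb, and that of Junb, at 4.06, both exceeded the highest of Fos, at 1.72. Without WT 4 the means rose, to 41.9 CPM per kb for Zfp36 and 0.748 for Fosb among others, and their order was the same.

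These genes also varied more between libraries of the same group than most. The within-group SD of log2 CPM was 0.35 for the median tested gene, and it ran from 0.56 for Klf6 and 0.63 for Btg2 to 1.33 for Atf3 and 1.52 for Egr1, which put the 10 genes between the 81.9th and the 99.2nd percentile of all tested genes. From the lowest to the highest of the 13 libraries, Egr1 spanned 67.1-fold and Btg2 4.48-fold. With WT 4 and the library labelled Spns1 KO 4 left out, the within-group SD ran from 0.28 (Klf6) to 0.73 (Egr1), against a median of 0.30, which put the 10 genes between the 44.0th and the 92.9th percentile, and Egr1 spanned 17.3-fold. Counting error adds to this spread, most where counts were few. The smallest count of any of the 10 was 9, for Fosb in the library labelled Spns1 KO 3 (exact 95% Poisson interval 4.12 to 17.1, which covers counting error only). The smallest of Fos was 17, in FeO 3 (9.9 to 27.2). Without the 2 libraries the within-group SD was 0.48 for Fosb and 0.45 for Fos, and counting error is not small beside these.

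**Figure D1:**
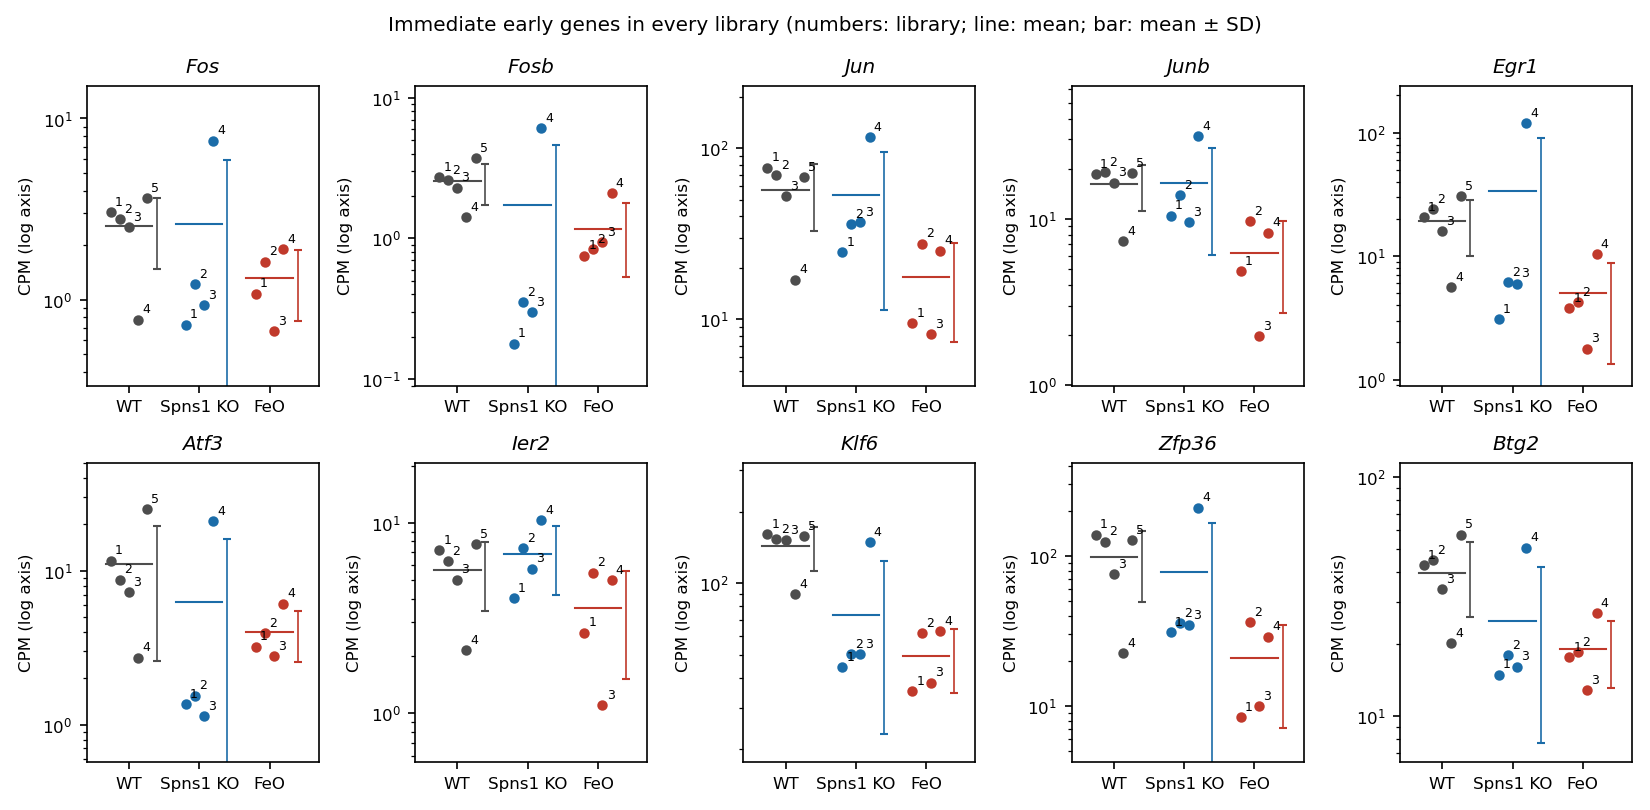
Level of each immediate early gene in every library, in CPM on a log axis. Each point is a library with its number, horizontal lines are group means, and vertical bars are the mean ± SD, which run off the axis where the SD exceeds the mean. The libraries labelled Spns1 KO 1 to 3 and the FeO libraries lie below WT 1, 2, 3 and 5 for every gene but Ier2, the library labelled Spns1 KO 4 is the highest of its group for all 10 genes, and WT 4 is the lowest of its group for all 10.

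The first question was whether iron overload by injection moved these genes. All 10 were lower in FeO than in WT by fitted fold change, and 5 of the 10 passed the call rule (adjusted p under 0.05 over all 16468 tested genes and a log2 fold change beyond 0.5): Jun, Junb, Klf6, Zfp36 and Btg2. None was called higher. In the same comparison 19.7% of all tested genes were called lower and 22.4% higher. The median log2 fold change of the 10 genes was -1.42, against -0.01 over all tested genes. FeO libraries lay below every WT library without overlap for 1 of the 10 genes, Klf6, against 16.4% of all tested genes. That count rests on WT 4: without it the count was 9 of the 10, all but Ier2, against 20.9% of all tested genes. WT 4 was singled out after its levels of these genes had been seen. It was the lowest WT library for all 10, which held for 31.7% of all tested genes. The count without it describes the remaining libraries and is not a test.

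Among the AP-1 genes, the Jun partners fell and the Fos partners were not called. Jun, the main transactivating partner of AP-1 (chr4:95049034-95052222), was at 9.51, 27.7, 8.13 and 25.2 CPM in FeO 1 to 4 and at 77.1, 69.8, 52.4, 17.0 and 67.9 CPM in WT 1 to 5. FeO thus lay below WT in every library but WT 4, which sat inside the FeO range. Its log2 fold change was -1.69 (standard error 0.52, edgeR adjusted p = 0.0161). Junb (chr8:84974484-84978718), a weaker activator that can restrain Jun, was at 4.85, 9.70, 1.97 and 8.25 CPM in FeO and at 18.6, 19.1, 16.5, 7.35 and 18.8 CPM in WT. Again only WT 4 overlapped FeO, and the log2 fold change was -1.37 (standard error 0.44, edgeR adjusted p = 0.0206).

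Fos (chr12:85473890-85477273), the prototype of the family, was at 1.08, 1.62, 0.670 and 1.91 CPM in FeO and at 3.05, 2.77, 2.52, 0.777 and 3.63 CPM in WT. FeO overlapped WT 4 alone here too, but the log2 fold change of -0.94 had a standard error of 0.64 and was not called (edgeR adjusted p = 0.235). Fosb (chr7:19302696-19310051), which also gives rise to the stable deltaFosB protein, was at 0.754, 0.844, 0.947 and 2.10 CPM in FeO and at 2.72, 2.59, 2.30, 1.41 and 3.71 CPM in WT. Its log2 fold change was -1.13 (standard error 0.81, edgeR adjusted p = 0.26). Atf3 (chr1:191170296-191218039), a stress-induced factor that mostly represses, was at 3.21, 3.93, 2.80 and 6.11 CPM in FeO and at 11.6, 8.75, 7.24, 2.72 and 25.2 CPM in WT. Its log2 fold change was -1.47 (standard error 0.80, edgeR adjusted p = 0.145). WT 5 held the highest Atf3 level of all libraries, and without it the log2 fold change was -0.90.

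Of the zinc finger and nuclear factors, Klf6 fell and the others were not called. Klf6 (chr13:5861482-5870394), which responds to injury in many epithelia, was at 35.3, 61.9, 38.2 and 63.0 CPM in FeO and at 161, 153, 152, 90.0 and 159 CPM in WT, and even WT 4 exceeded the highest FeO library. The log2 fold change was -1.53 (standard error 0.34, edgeR adjusted p = 0.00277), and the gene was called in 23 of 23 alternative analyses. Egr1, which couples MAP kinase signals to growth factor genes, was at 3.80, 4.22, 1.77 and 10.3 CPM in FeO and at 20.6, 23.8, 15.9, 5.62 and 30.6 CPM in WT. Its log2 fold change of -1.94 was large but not called (standard error 0.92, edgeR adjusted p = 0.0955). Ier2 (chr8:84661331-84662852) was at 2.66, 5.48, 1.10 and 4.98 CPM in FeO and at 7.19, 6.29, 5.04, 2.15 and 7.76 CPM in WT, a log2 fold change of -0.67 (standard error 0.43, edgeR adjusted p = 0.212).

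Both regulators of message decay fell. Zfp36 (chr7:28376784-28380253), whose own message carries the 3 TATTTAT cores of which the first is printed above, was at 8.43, 36.1, 10.02 and 29.1 CPM in FeO and at 139, 125, 76.0, 22.6 and 128 CPM in WT. WT 4 lay inside the FeO range. This was the largest fitted fall of the 10, a log2 fold change of -2.23 (standard error 0.67, edgeR adjusted p = 0.0146), called in 23 of 23 alternatives. Btg2 (chr1:134075170-134079120) was at 17.6, 18.5, 12.8 and 27.0 CPM in FeO and at 42.8, 44.9, 33.9, 20.2 and 57.4 CPM in WT, a log2 fold change of -1.07 (standard error 0.37, edgeR adjusted p = 0.0291).

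The FeO libraries were not alike among themselves. FeO 3 was the lowest of its group for 7 of the 10 genes and the lowest of all 13 libraries for 6, and FeO 4 was the highest of its group for 6. The number of genes called lower was 2 when FeO 1 or FeO 3 was left out, so the count depends on each of these libraries. Of all tested genes, 2333 were called lower without FeO 1 and 2571 without FeO 3, against 3252 with all libraries. The number was 8 without the library labelled Spns1 KO 4 (21.2% of all tested genes), and 9 without that library and WT 4 together (20.6% of all tested genes), when Ier2 alone was not called. Those 2 libraries were chosen after their levels of these genes had been seen, so the 8 and the 9 describe the remaining libraries. Leaving out a library labelled Spns1 KO changes the FeO comparison through the shared estimate of the spread and the set of genes tested.

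**Figure D2:**
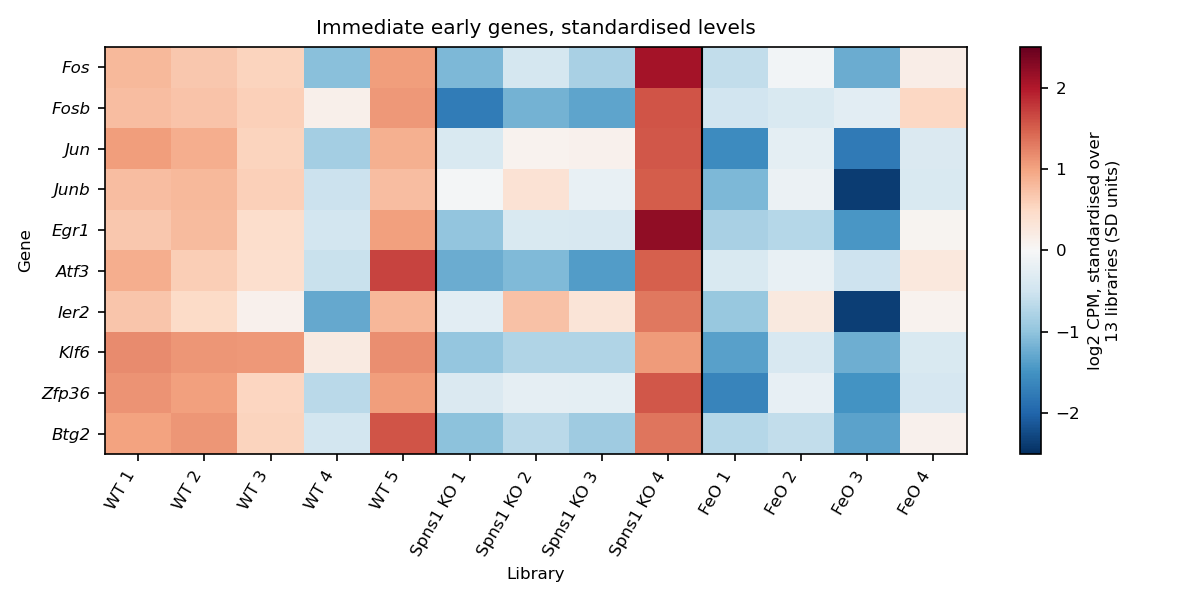
Standardized log2 CPM of the 10 genes (rows) in the 13 libraries (columns), in SD units over all libraries, red above and blue below the mean of each gene. The library labelled Spns1 KO 4 is the reddest column (mean of the 10 genes 1.57), FeO 3 the bluest (-1.40), and WT 4 (-0.55) stands out among the WT libraries (0.55 to 1.11).

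The second question was whether the libraries labelled Spns1 KO differed from WT in the same genes. With all 13 libraries, 1 of the 10 genes was called lower, Klf6, and none higher, in a comparison in which 7.55% of all tested genes were called lower and 14% higher. The fitted fold changes pointed down for 6 genes and up for 4, and their median was -0.21 on the log2 scale, against -0.05 for all tested genes. No gene separated the groups without overlap (9.38% of all tested genes lay wholly below WT). With WT 4 and the library labelled Spns1 KO 4 left out, 9 of the 10, all but Ier2, lay wholly below WT, against 28.1% of all tested genes. Both libraries were singled out after their levels of these genes had been seen, so that count describes the remaining libraries. Klf6 was at 44.3, 50.6, 50.5 and 149 CPM in the libraries labelled Spns1 KO 1 to 4, of which the first 3 lay below every WT library and the last inside the WT range. The fitted log2 fold change was -0.96 (standard error 0.34, edgeR adjusted p = 0.0499). That call held in 7 of 23 alternatives, and in 2 of the 13 fits that left out a single library. DESeq2 called 0 of the 10 genes higher, in a fit that called 2594 of all genes higher.

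The libraries labelled Spns1 KO 1 to 3 lay close together and low for most genes, whereas the library labelled Spns1 KO 4 lay at or above the WT level. The gap was widest for Egr1, at 3.07, 6.17 and 5.98 CPM in the libraries labelled Spns1 KO 1 to 3 and 119 CPM in the library labelled Spns1 KO 4, 23.5-fold over the mean of the other 3. Fosb followed with 0.179, 0.352 and 0.301 CPM against 6.06 CPM (21.9-fold), and Atf3 with 1.36, 1.54 and 1.14 CPM against 21.0 CPM (15.6-fold). Fos was at 0.730, 1.22 and 0.935 CPM against 7.55 CPM (7.86-fold), and Zfp36 at 30.96, 35.9 and 34.8 CPM against 210.0 CPM (6.20-fold).

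The remaining genes showed the same order with a smaller gap. Jun was at 24.7, 35.9 and 36.8 CPM against 116 CPM (3.57-fold), Btg2 at 14.9, 17.96 and 16.1 CPM against 50.6 CPM (3.10-fold) and Junb at 10.5, 13.9 and 9.52 CPM against 31.5 CPM (2.79-fold). Ier2 had the smallest gap, at 4.02, 7.36 and 5.74 CPM against 10.4 CPM (1.82-fold). In WT 4 the 10 genes stood at between 19.4% (Zfp36) and 57.6% (Klf6) of the mean of the other 4 WT libraries.

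Of the alternatives run, leaving out these libraries changed the count of calls most. Without the library labelled Spns1 KO 4, 7 of the 10 genes were called lower (16.1% of all tested genes), and without it and WT 4 together 8 were (15.5% of all tested genes), all but Junb and Ier2. The 2 libraries were chosen after their levels of these genes had been seen, so those counts describe the remaining libraries and are not a test of the genotype. On that basis Fosb stood at 0.277 ± 0.0888 CPM (SD, n = 3) against 2.83 ± 0.611 in the other WT libraries (n = 4), a log2 fold change of -3.38 (standard error 0.44, edgeR adjusted p = 0.000264). Atf3 stood at 1.35 ± 0.203 against 13.2 ± 8.22 CPM, a log2 fold change of -3.29 (standard error 0.44, edgeR adjusted p = 0.000324).

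The other genes moved less on the same basis. Egr1 had a log2 fold change of -2.17 (standard error 0.47), Zfp36 of -1.79 (0.43), Klf6 of -1.69 (0.21), Fos of -1.64 (0.35), Btg2 of -1.45 (0.24) and Jun of -1.04 (0.37). Junb, at 11.3 ± 2.31 against 18.3 ± 1.18 CPM, had a log2 fold change of -0.69 (standard error 0.37, edgeR adjusted p = 0.156), and Ier2, at 5.71 ± 1.67 against 6.57 ± 1.19 CPM, of -0.21 (standard error 0.41, edgeR adjusted p = 0.714). With all libraries the directions of Fos, Junb, Egr1 and Ier2 were upward (log2 fold changes of 0.03, 0.02, 0.80 and 0.27), so for these 4 the sign itself depends on the libraries kept.

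**Figure D3:**
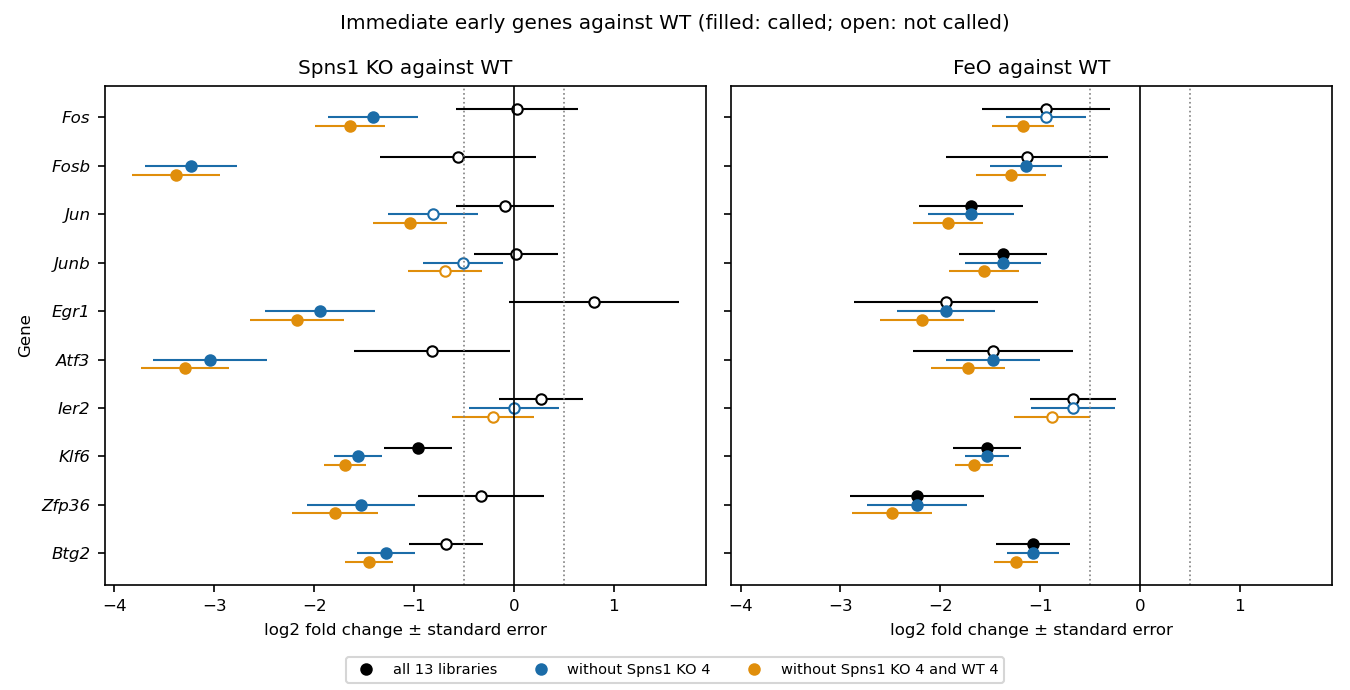
Fitted log2 fold changes against WT with standard errors for each gene, from all 13 libraries (black), without the library labelled Spns1 KO 4 (blue) and without it and WT 4 (orange). Filled points were called, dotted lines mark the fold limit of 0.5 in either direction. The FeO estimates stay between -2.48 and -0.67 in the 3 fits, while those of the libraries labelled Spns1 KO run from -0.96 to 0.80 with all libraries and reach -3.38 without the 2 libraries.

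Both comparisons share the WT libraries, so the values of the 2 models against WT are not independent, and the models were also compared directly. With all libraries the 10 genes were higher in the libraries labelled Spns1 KO than in FeO by fitted fold change, with a median of 0.96 on the log2 scale, and none was called (8.1% of all tested genes were called lower and 6.76% higher). Those nearest to the limit were Junb (log2 fold change 1.40, edgeR adjusted p = 0.0514), Jun (1.59, edgeR adjusted p = 0.0547), Egr1 (2.74, edgeR adjusted p = 0.0662) and Zfp36 (1.90, edgeR adjusted p = 0.0698). At an unadjusted p under 0.05 they were the only 4 of the 10, and DESeq2 called 3. No share over all tested genes under those 2 rules stands beside these counts, so they are not read as a result.

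Without the library labelled Spns1 KO 4, Fosb was lower in the libraries labelled Spns1 KO 1 to 3 than in FeO (log2 fold change -2.09, standard error 0.46, edgeR adjusted p = 0.0145). Its counts in those 3 libraries were 12, 13 and 9. Fosb was the 1 gene called lower, against 5.67% of all tested genes. With WT 4 left out as well, Atf3 joined it (log2 fold change -1.57, standard error 0.42, edgeR adjusted p = 0.0317), making 2 called (5.95% of all tested genes). Both left-out libraries were chosen after their levels of these genes had been seen, so these calls describe the remaining libraries and are not a test. Jun (0.88), Junb (0.86), Zfp36 (0.70) and Ier2 (0.68) had log2 fold changes above 0 that were not called, Fos (-0.47) and Btg2 (-0.22) had values below 0 that were not called, and Egr1 (0.01) and Klf6 (-0.03) had estimates near 0 with standard errors of 0.45 and 0.20.

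The genes around the 10 were taken from lists of related genes, whose counts in FeO stand beside 19.7% of all tested genes called lower and 22.4% called higher. The lists too were chosen with earlier results of these data known, so their counts are a description. Of 33 tested signalling and feedback genes that are also rapidly induced, 21 were called lower in FeO and none higher, with a median log2 fold change of -0.95. The largest falls were those of Plk3, a stress-responsive kinase (log2 fold change -3.15, standard error 0.94, edgeR adjusted p = 0.0143), and Gadd45g, a growth arrest gene (-2.70, standard error 0.70, edgeR adjusted p = 0.00634). Of 20 other rapidly induced transcription factors, 9 were called lower and none higher, led by the orphan receptor Nr4a1 (-2.15, standard error 0.68, edgeR adjusted p = 0.0188) and the clock gene Per1 (-2.01, standard error 0.69, edgeR adjusted p = 0.0264). Egr2, Egr3 and Egr4 had at most 25 counts in any library and were not tested. Of 11 other AP-1 and small Maf genes, 4 were called lower, Mafk (-1.35) and Fosl2 (-1.26) most.

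Upstream of the 10 genes, 6 of 19 MAP kinases and their kinases were called lower in FeO and 2 higher, the latter a smaller share than the 22.4% of all tested genes. Mapk3, which encodes ERK1, rose (log2 fold change 1.33, standard error 0.18, edgeR adjusted p = 0.000384) with its activator Map2k1 (0.55, edgeR adjusted p = 0.022), while Braf (-1.12, edgeR adjusted p = 0.000482) and Mapk14, which encodes p38 alpha (-0.71, edgeR adjusted p = 0.0133), fell. Of 16 upstream transcription factors and coactivators, 9 were called lower, against 19.7% of all tested genes, and 1, Crem, higher (0.58, edgeR adjusted p = 0.0124). The acetyltransferase Ep300 (-1.50, edgeR adjusted p = 0.000408) and the serum response factor coactivator Mrtfb (-1.35, edgeR adjusted p = 0.000674) fell most. Of 18 genes that act on AU-rich elements and poly-A tails, 8 were called lower, including Tob2 (-2.01, edgeR adjusted p = 0.00544) and the decapping factor Dcp1a (-1.35, edgeR adjusted p = 0.00246).

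In the libraries labelled Spns1 KO, 7.55% of all tested genes were called lower and 14% higher with all libraries in the fit, and several lists lay near those shares. The counts were 2 lower and 1 higher of the 33 signalling genes, 3 higher of the 20 transcription factors, 1 lower of the 11 AP-1 and small Maf genes, 3 lower and 1 higher of the 19 MAP kinases, 3 lower of the 16 upstream factors and 3 lower of the 18 decay genes. Maff (log2 fold change -1.32, edgeR adjusted p = 0.0474), Btg1 (-0.86, edgeR adjusted p = 0.00859), Pim1 (-0.52, edgeR adjusted p = 0.0185) and Tob1 (-0.95, edgeR adjusted p = 0.037) fell, and the inhibitors of differentiation Id3 (1.22, edgeR adjusted p = 0.00803) and Id1 (1.03, edgeR adjusted p = 0.0357) and the cytokine feedback gene Socs3 (1.05, edgeR adjusted p = 0.0252) rose. Mapk3 rose here too (0.76, edgeR adjusted p = 0.00722), and Mapk8, which encodes JNK1 (-0.63, edgeR adjusted p = 0.0117), Rps6ka5 (-0.75, edgeR adjusted p = 0.0115), Mrtfb (-0.85, edgeR adjusted p = 0.0158), Ep300 (-0.61, edgeR adjusted p = 0.046) and Xrn1 (-0.64, edgeR adjusted p = 0.0235) fell. Without the library labelled Spns1 KO 4 and WT 4, Id1 (edgeR adjusted p = 0.0615) and Socs3 (edgeR adjusted p = 0.0501) were no longer called.

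The library labelled Spns1 KO 4 was the highest of its group for 31 of the 33 signalling genes and WT 4 the lowest of its group for 31 of 33, close to the 10 of 10 seen for the immediate early genes. For the 20 transcription factors these counts were 13 and 16, and for the MAP kinases 9 and 7 of 19. Without both libraries, 15.5% of all tested genes were called lower in the libraries labelled Spns1 KO, as were 21 of the 33 signalling genes, 8 of the 20 transcription factors (2 higher), 5 of the 11 AP-1 and small Maf genes, 6 of the 19 MAP kinases (1 higher), 8 of the 16 upstream factors and 5 of the 18 decay genes. In FeO, where 20.6% of all tested genes were called lower in that fit, the counts were 26, 14, 5, 5 (3 higher), 9 (1 higher) and 8 in the same order. As for the 10 genes, these counts describe the remaining libraries.

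**Figure D4:**
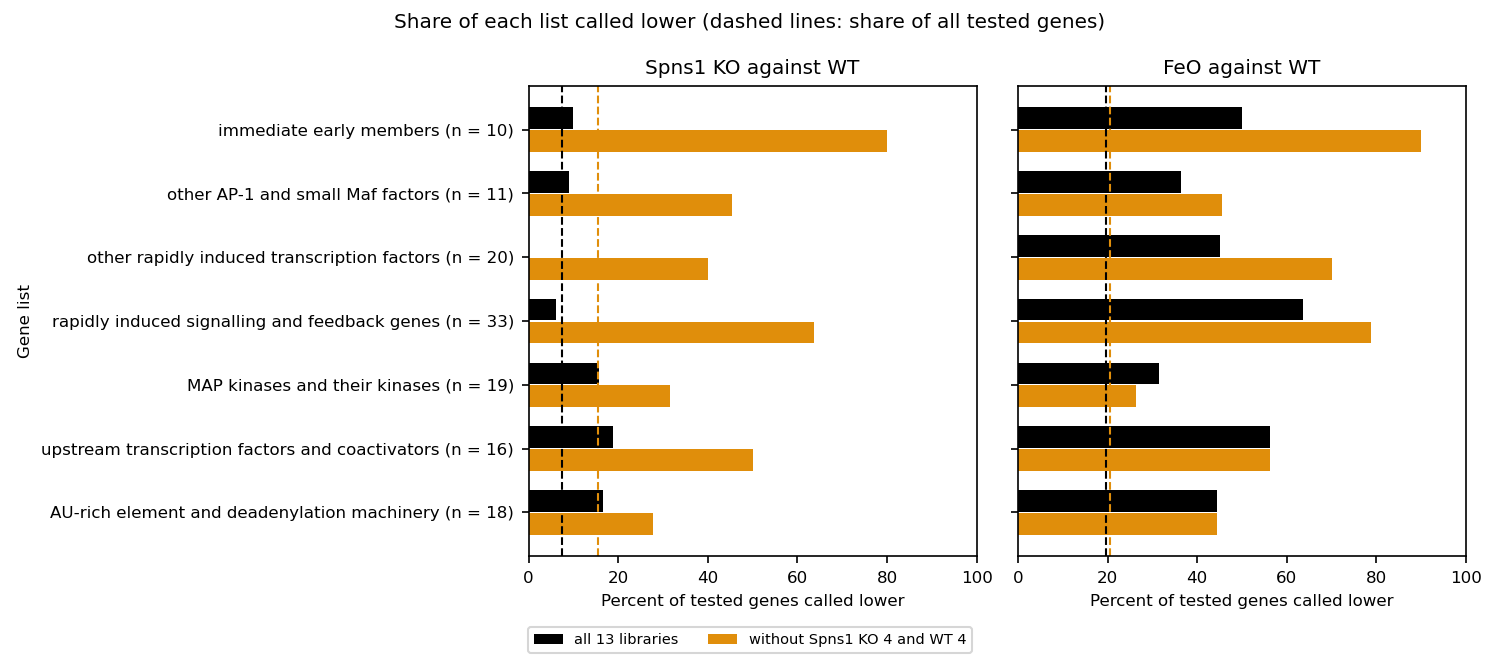
Percent of the tested genes of each list called lower than WT, with all 13 libraries (black) and after leaving out WT 4 and the library labelled Spns1 KO 4 (orange). Dashed lines give the percent of all tested genes called lower in the same fit, 7.55% and 15.5% on the left and 19.7% and 20.6% on the right. With all libraries the bars lie on both sides of the line on the left, and every bar exceeds it on the right.

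Summed levels of cell type markers moved with the groups, and their part in these results was not tested. In bulk RNA, fewer cells of a kind and less RNA per cell cannot be told apart. Of all tested genes, 14% were called higher in the libraries labelled Spns1 KO and 22.4% in FeO, beside which the marker counts stand. The 10 proximal tubule markers summed to 3532.7 to 4903.1 CPM in WT, 7657.9 to 8996.1 CPM in the libraries labelled Spns1 KO and 2065.5 to 5721.0 CPM in FeO. Of these, 7 were called higher in the libraries labelled Spns1 KO, and in FeO 1 was called higher and 1 lower. The 7 macrophage and leukocyte markers summed to 77.8 to 94.6 CPM in WT, 169.8 to 208.0 CPM in the libraries labelled Spns1 KO and 101.1 to 185.9 CPM in FeO. Of these, 1 was called higher in the libraries labelled Spns1 KO and 5 in FeO. The 6 podocyte markers summed to 194.6 to 335.9 CPM in WT and 290.0 to 658.2 CPM in FeO, and the 7 collecting duct markers to 378.4 to 665.4 and 523.6 to 1512.8 CPM. In FeO, 3 podocyte and 5 collecting duct markers were called higher. Of each set, 2 were called higher in the libraries labelled Spns1 KO, with 1 collecting duct marker called lower there. The 6 fibroblast markers summed to 93.2 to 137.6 CPM in WT and 157.9 to 202.6 CPM in the libraries labelled Spns1 KO, where 3 were called higher, against 0 in FeO. The 5 smooth muscle and renin cell markers summed to 72.8 to 108.3 CPM in WT and 101.3 to 231.3 CPM in FeO. In FeO 4 were called higher, against 0 in the libraries labelled Spns1 KO. The 6 loop and distal tubule markers summed to 1928.2 to 4535.0 CPM in WT, 3365.4 to 4448.1 CPM in the libraries labelled Spns1 KO and 1999.7 to 5372.0 CPM in FeO. Of these, 2 were called higher in the libraries labelled Spns1 KO and 1 in FeO. Endothelial markers summed to 238.6 to 299.2, 277.7 to 328.7 and 217.2 to 381.4 CPM in the same order, and neutrophil markers to at most 6.39 CPM in any library. Of the 7 endothelial markers, 1 was called higher in each model and 1 lower in FeO. None of the 3 tested neutrophil markers was called. The 5 red cell markers summed to 9.40 to 36.5 CPM in WT, 51.8 to 175.0 CPM in the libraries labelled Spns1 KO and 26.3 to 237.8 CPM in FeO. All 5 were called higher in the libraries labelled Spns1 KO, and 4 in FeO. No marker was at 0 in every library of a group, so the capture was not of proximal tubule RNA alone. Of 13 injury and stress genes, 3 were called higher in FeO, a share near the 22.4% of all tested genes, among them Lcn2 (log2 fold change 1.20, edgeR adjusted p = 0.0051) and Krt18 (1.18, edgeR adjusted p = 0.00261), and 1 was called lower in the libraries labelled Spns1 KO, near the 7.55% of all tested genes, Cdkn1a (-1.98, edgeR adjusted p = 0.00263).

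Some counts may hold reads of a neighbor. Jun is overlapped by the antisense gene Junos, Junb by Prdx2 on the opposite strand and Zfp36 by the antisense gene Gm44710, and 6.39%, 6.51% and 6.57% of their 31-base words also occur on either strand of another gene. Strand was not stated to have been used in counting, so reads of such partners cannot be told apart over those stretches. For the other 7 genes the share was at most 0.0472%.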

How the data were processed

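Thiol-tagged, poly-A selected kidney RNA of mice was sequenced as paired-end reads in 13 libraries. The deposited values are estimated counts per gene symbol, which were whole numbers as the authors deposited them, without normalization. The labels name bcl2fastq 2.19, kallisto 0.44.0, DESeq2 and GRCm38, whereas the methods describe alignment with STAR and counting with HTSeq, so the counting tool is uncertain. Groups were taken from the sample titles. Every value of a fold change was refitted here from the counts.

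Genes kept by filterByExpr (16468 of 35013) were scaled with TMM factors and tested in edgeR 4.0.16 (R 4.3.3) by glmQLFit and glmQLFTest, with all 13 libraries in 1 fit and group as the only term. Adjusted p-values are Benjamini-Hochberg values over all tested genes, and a gene was called when that p was under 0.05 and its absolute log2 change exceeded 0.5. CPM are TMM-scaled, and log2 CPM used a prior count of 2. Standard errors are those of the fitted log2 fold change. The 10 genes and the gene lists were chosen with earlier results of these data known. From each list that is not of cell markers, the text names up to 2 genes called higher and 2 called lower with the largest change in each model against WT. Alternatives were RLE factors, DESeq2 1.42.0, limma-voom (limma 3.58.1), no low-count filter, the compared groups alone, glmTreat, removal of a length and GC trend (mgcv 1.9.3), the replicate number as a block, each library left out in turn, and, added after seeing the data, both the library labelled Spns1 KO 4 and WT 4 left out and library totals alone. The procedure was tested on simulated data before use. No 2 libraries of a group held the same counts within sampling noise. The most alike were WT 1 and WT 2, with a chi-squared of 8.48 per degree of freedom between their counts. The next pair, WT 2 and WT 5, had 39.67. Nothing states that the libraries are separate animals beyond their titles, so p-values measure the spread between these libraries. Promoters are RefSeq's and gene models GENCODE M21.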

Additional observations from a re-analysis of the deposited data

Results flagged for a closer look

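Of 30 sets of levels (10 genes in 3 groups), 11 had an end library whose gap to the nearest other was too large a share of the group's range under Dixon's 95% limit. For normally distributed values chance gives about 1 in 20. The gaps were taken on CPM and not on a log scale, so that rate need not hold here. In 8 of the 11 it was the library labelled Spns1 KO 4 at the top: Fos at 7.549 CPM, Fosb at 6.063, Jun at 115.7, Egr1 at 119.1, Atf3 at 21.0, Klf6 at 148.8, Zfp36 at 210.0 and Btg2 at 50.63 CPM. WT 4 was too low for Junb, at 7.348 CPM, and for Klf6, at 90.04 CPM. FeO 4 was too high for Fosb, at 2.099 CPM. The 10 genes rise and fall together between libraries, so these are not 11 separate events.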

How the results depend on the processing

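In FeO against WT no gene changed direction in any alternative. Klf6 and Zfp36 were called in 23 of 23, Jun and Junb in 20, Btg2 in 16, Egr1 in 4, Fosb and Atf3 in 3, and Fos and Ier2 in 1. The count of the 10 called, all lower, was 5 with all libraries, against 3252 of all genes called lower. It was 8 with only the compared groups fitted (3220 of all genes lower) and 2 with glmTreat (1264). Without the library labelled Spns1 KO 4 and WT 4 it was 9 (3427), and over single libraries left out 2 to 8. For the libraries labelled Spns1 KO against WT the count, all lower, was 1, against 1243 of all genes called lower. It was 2 with limma-voom (1529 of all genes lower). The count was 0 without the low-count filter (793), with only the compared groups (1395) and with glmTreat (96). With the length and GC trend removed (643) and with the replicate block (1057) it was also 0. Without both libraries it was 8 (2570). Over single libraries left out it was 0 to 7, with 7 without the library labelled Spns1 KO 4 (2677). For the libraries labelled Spns1 KO against FeO it was 0, then 1 with RLE factors, 3 with DESeq2, 2 without the filter, 2 with the trend removed, 2 without both libraries and 0 to 3 over single libraries left out. Most of these last counts stand without a share of all genes in the same fit and direction, so they are not read as a result. Over all genes, glmTreat called 929, 3119 and 343 genes in the 3 comparisons in this order (libraries labelled Spns1 KO against WT, FeO against WT, libraries labelled Spns1 KO against FeO), against 3550, 6943 and 2447. Single libraries left out gave 2035 to 5680, 5627 to 7473 and 1181 to 3087. The first comparison gave 5560 without both libraries, and the last gave 1040 with only those groups fitted.

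Signs that turned in the libraries labelled Spns1 KO against WT were all of uncalled values in the full fit. Fos became -0.56 (limma-voom), -0.01 (trend removed), -0.50 (replicate block), -0.11 (library totals) and -1.64 without both libraries, and over single libraries ran from -1.41 to 0.35. Junb became -0.08 (limma-voom), -0.28 (trend removed), -0.12 (block), -0.11 (library totals) and -0.69 (without both), and ran from -0.51 to 0.21. Egr1 became -0.68 (limma-voom), -0.71 (block) and -2.17 (without both), and ran from -1.94 to 1.18. Ier2 became -0.09 (trend removed) and -0.21 (without both), and Jun ran from -0.81 to 0.14. Against FeO, limma-voom and the block gave -0.90 and -0.36 for Fosb and -0.52 and -0.18 for Atf3. Without both libraries the values were -0.47 (Fos), -2.09 (Fosb), -1.57 (Atf3), -0.03 (Klf6) and -0.22 (Btg2), and over single libraries they ran from -0.47 to 1.29, -2.09 to 1.03, -1.57 to 0.99, -0.03 to 0.75 and -0.22 to 0.61. Apart from the settings that left libraries out, the cause was not tested. Library totals moved the median of all genes in the first comparison to -0.18.

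Libraries with the same number were not shown to be paired: the correlations of their deviations from group means ran from -0.296 to 0.256. With the number as a block, 0, 6 and 0 of the 10 genes and 2988, 6516 and 1917 of all genes were called. Depth limits Fosb most, whose lowest count was 9.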

Other observations

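Across all 13 libraries, the genes outside the list whose standardized log2 CPM lay nearest to the mean of the 10 were Csrnp1 (mean absolute difference 0.134 SD units), Dnajb5 (0.158), Arid5a (0.171), Gm20605 (0.171) and Nr4a1 (0.177). The 10 genes themselves differed from their own mean by 0.175 (Egr1) to 0.494 (Ier2). Csrnp1, which encodes a nuclear protein induced by Axin, was at 43.8 CPM in the library labelled Spns1 KO 4, 6.29 to 31.9 CPM in WT and 4.46 to 10.98 CPM in FeO. Nr4a1 was at 69.4 CPM in the library labelled Spns1 KO 4, 8.76 to 37.1 CPM in WT and 2.84 to 8.10 CPM in FeO. Arid5a was at 13.9 CPM in the library labelled Spns1 KO 4, 4.24 to 11.6 CPM in WT and 2.29 to 4.41 CPM in FeO. For these 3 the library labelled Spns1 KO 4 exceeded every WT library, as it did for Dnajb5 (25.0 against at most 20.5 CPM) and Gm20605 (221.6 against at most 190.1 CPM). The genes were picked for likeness to the mean of the 10, which is highest in that same library, so this follows largely from the choice.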
